A study of Mus musculus with 21 samples.

Results

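The proteasome is the protease that degrades ubiquitin-tagged proteins, and its 39 genes examined here were measured by RNA sequencing in mouse hindlimb muscle with and without 3 FoxO transcription factors and with and without diabetes. The genes were chosen by name: 14 subunits of the 20S core (7 of the alpha ring and 7 of the beta ring), 18 subunits of the 19S cap (6 ATPases and 12 others), 5 assembly factors, the activator Psme4 and the inhibitor Psmf1. All 39 had a row among the 46071 genes of the count table, and all 39 were among the 12658 genes tested.

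In the 20S core, the beta ring subunits Psmb5, Psmb6 and Psmb7 hold the catalytic sites, and the alpha ring gates the entry. The 19S cap recognises ubiquitin chains, and its ring of ATPases unfolds the substrate and feeds it into the core. Psme4 caps the same core in place of the 19S and allows breakdown of proteins without ubiquitin, while Psmf1 inhibits the core in vitro. In wasting muscle the ubiquitin-proteasome system is known for breaking down contractile proteins, and FoxO factors are known for turning on the ubiquitin ligases of that system when insulin is low.

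Muscle of 4 groups was compared. STZ TKO (6 libraries) came from mice with a triple knockout of Foxo1, Foxo3 and Foxo4 that had been given streptozotocin (STZ), a toxin of insulin-producing beta cells. STZ floxed (5 libraries) came from diabetic mice with floxed alleles and no recombination, TKO (6 libraries) from knockouts without STZ, and floxed (4 libraries) from floxed mice without STZ. The knockout was made with a Cre recombinase under the ACTA1 promoter of skeletal actin, so cells of the muscle other than fibres keep intact FoxO genes. Controls were littermates on a mixed background of C57 and 129 strains. STZ was injected into the peritoneum after an overnight fast at 150 mg/kg, and females had another 75 mg/kg on day 3, while mice without STZ received citrate buffer. Random blood glucose above 300 mg/dL was required of the diabetic mice. Age and sex are not given per library in the sources used here. RNA came from pulverised quadriceps and gastrocnemius mixed together. Single libraries carry the numbers 1 to 21 of their titles.

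Total counts per library were 2951290 to 7687823, with a median of 5665819. Foxo4 averaged 7.43 ± 2.7 CPM (counts scaled to 1000000 per library after TMM adjustment, mean ± SD) in STZ TKO and 190 ± 7.72 CPM in STZ floxed muscle, and 6.24 ± 1.52 CPM in TKO against 160 ± 29.5 CPM in floxed muscle. Foxo1 averaged 15.8 ± 5.61 CPM in STZ TKO against 56.8 ± 21.1 CPM in STZ floxed muscle, and 14.6 ± 3.97 CPM in TKO against 68.9 ± 30.6 CPM in floxed muscle. Foxo3 was not lower: it had 136 ± 60.7 CPM in STZ TKO and 90.3 ± 14 CPM in STZ floxed muscle, and 96.1 ± 16.6 CPM in TKO and 73.1 ± 11.3 CPM in floxed muscle. Which exons the floxed alleles remove is not given in the sources used here, and counts of a whole gene include exons outside the removed part. Summed macrophage markers were 304 to 2426 CPM in STZ TKO and 213 to 317 CPM in STZ floxed muscle, and 325 to 1897 CPM in TKO against 185 to 254 CPM in floxed muscle. All 14 macrophage markers were above 0 in every library. Muscle fibre markers summed to 135467 to 214107 CPM in STZ TKO, 84768 to 243979 CPM in STZ floxed, 96669 to 227872 CPM in TKO and 180841 to 256744 CPM in floxed muscle.

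Some libraries stood apart in the proteasome genes. The 39 genes together took 0.356 to 0.652% of the counts in STZ TKO, 0.447 to 0.993% in STZ floxed, 0.384 to 0.479% in TKO and 0.400 to 0.435% in floxed libraries. Library 17 (STZ floxed) had the 0.993%, and was the highest of its group for 26 of 39 genes. Library 8 was the highest STZ TKO library for 23 genes and library 18 for 13, while library 4 was the lowest for 21 and library 15 for 15. In TKO muscle, library 6 was the highest for 26 genes, and libraries 20 and 13 the lowest for 16 and 15. In floxed muscle, library 5 was the highest for 20 genes and library 19 the lowest for 25. STZ floxed library 14 was the lowest for 23. By runs of consecutive title codes, libraries 5, 6 and 8 fall in run 2, as does library 7, the highest for 5 genes. Libraries 17 and 18 fall in run 5, as does library 16, the highest for 4. Libraries 13, 14 and 15 make up run 4. Runs 4 and 5 hold no library of the floxed group. The part of the runs in these levels was not tested. For several fold changes in which libraries 8, 17 and 18 stood out, the value without the library stands beside the one with it.

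Psme4 was the proteasome gene with the clearest difference between genotypes: its transcript in knockout muscle was about 1 log2 unit below that in floxed muscle, with and without STZ. In mice its protein is best known from spermatogenesis and DNA repair, where it acts on acetylated histones. The gene lies at chr11:30771726-30880361 on the plus strand of GRCm38, and none of its exons overlaps an exon of another annotated gene. Its RefSeq promoter window (GRCm38.p6, chr11:30771525-30771824, plus strand), shown because Psme4 carries the main result, is printed with the antioxidant response core in capitals.

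Psme4: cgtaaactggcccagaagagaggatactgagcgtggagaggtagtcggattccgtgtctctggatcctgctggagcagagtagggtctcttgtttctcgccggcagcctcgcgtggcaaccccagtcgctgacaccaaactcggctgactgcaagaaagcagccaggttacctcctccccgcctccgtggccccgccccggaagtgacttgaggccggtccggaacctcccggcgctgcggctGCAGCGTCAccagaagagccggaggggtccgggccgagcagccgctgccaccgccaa

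Under STZ, the lowest, median and highest Psme4 levels were 267, 467 and 658 CPM in STZ TKO libraries, against 714, 754, 845, 1448 and 1125 CPM in STZ floxed libraries 3, 7, 14, 17 and 21. Every STZ TKO library lay below every STZ floxed library. The knockout effect under STZ was a log2 fold change of -1.11 ± 0.26 (SE; 95% interval -1.65 to -0.57), with an adjusted p of 0.0137 in edgeR's quasi-likelihood test with Benjamini-Hochberg adjustment over all genes. Psme4 was the 1 member of 39 past the threshold of 0.05 in this comparison. Of all genes tested, 4.89% passed it, 2.42% as lower. Psme4 fell in STZ TKO muscle with each of the 21 libraries left out in turn, with adjusted p-values of 0.00699 to 0.0376.

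Without STZ, the lowest, median and highest levels were 208, 372 and 504 CPM in TKO libraries, against 617, 583, 755 and 929 CPM in floxed libraries 1, 5, 9 and 19. Again no library of one genotype reached the range of the other. The log2 fold change was -0.998 ± 0.277 (95% interval -1.57 to -0.42), with an adjusted p of 0.091 in edgeR, so Psme4 did not pass the threshold here. No member passed in this comparison in edgeR, against 0.514% of all genes. One member, Psme4, had an unadjusted p under 0.05 there, against 11.5% of all genes. DESeq2 placed Psme4 past the threshold (log2 fold change -0.98, adjusted p = 0.0263), as it did 2.78% of all genes. So did edgeR with the run of consecutive title codes as a block (-1.14, adjusted p = 0.037), with 0.727% of all genes. Psme4 did not pass in edgeR with RLE scaling (adjusted p = 0.0999), no filter (0.085) or the compared groups only (0.0766). Nor did it pass without libraries 17 and 18 (0.0542). With 1 library left out in turn, it passed in 0 of 21 fits, with adjusted p-values of 0.0562 to 0.3.

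**Figure D1:**
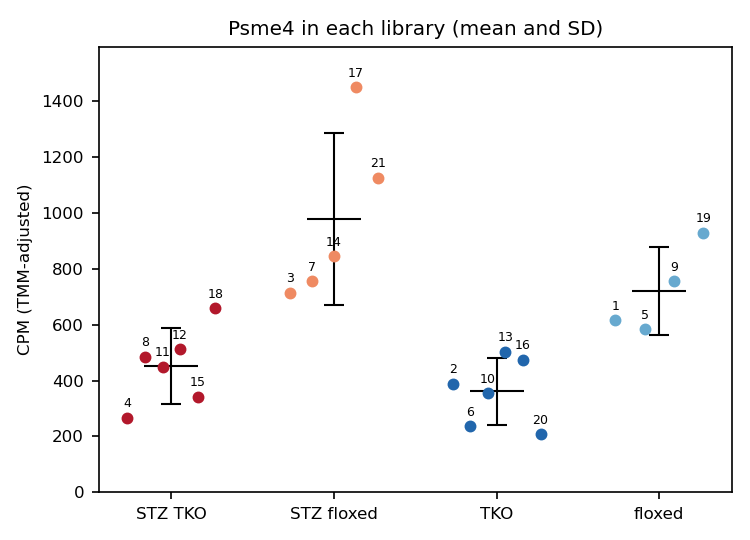
Psme4 level in CPM in each of the 21 libraries, with title numbers, in the groups STZ TKO, STZ floxed, TKO and floxed. Points are libraries, and bars give the group mean and SD. The highest STZ TKO library (658 CPM) lies below the lowest STZ floxed library (714 CPM), and the highest TKO library (504 CPM) below the lowest floxed library (583 CPM).

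Psme4 was the 1 member whose genotype groups did not overlap. Groups with the knockouts wholly lower were seen in 2.24% of all genes under STZ and in 2.61% without STZ. The title codes form 6 runs of consecutive codes, which the labels do not call batches. Both genotypes were present in 4 runs under STZ and in 4 runs without STZ, each with 1 library a side. The log2 differences of Psme4 within them were -1.42 to -0.64 and -2.16 to -0.67. Because the genotype groups do not overlap, their sign was fixed in advance and adds no support. The genotype effects with and without STZ differed by -0.11 ± 0.38 on the log2 scale, an interval of -0.90 to 0.67.

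Marker lists are given beside this result. Endothelial markers had lower values in 8 of 8 genes in both genotype comparisons, none past the threshold, and summed to 219 to 362 CPM in STZ TKO against 394 to 467 CPM in STZ floxed muscle, and to 277 to 394 CPM in TKO against 328 to 435 CPM in floxed muscle. Denervation markers had higher values in 6 of 8 genes under STZ and in 7 of 8 without STZ (median log2 fold changes 0.89 and 2.07), none past the threshold. Their sums were 87.4 to 269 CPM in STZ TKO against 95.2 to 298 CPM in STZ floxed muscle, and 80.2 to 660 CPM in TKO against 59.9 to 94.9 CPM in floxed muscle. Interferon response genes had lower values in 12 of 12 under STZ (median -0.50) and higher values in 10 of 12 without STZ (0.43). Fibroblast markers had higher values in 7 of 8 genes under STZ and 5 of 8 without STZ (medians 0.22 and 0.12). Muscle fibre markers had lower values in 6 of 11 and 9 of 11 genes (medians -0.05 and -0.24). None of these 3 lists had a gene past the threshold in either genotype comparison. The part of all these markers in the Psme4 result was not tested. Macrophage markers had higher values in 13 of 14 genes in STZ TKO muscle and 14 of 14 in TKO muscle, with 6 and 2 past the threshold. The 2 STZ TKO libraries with the lowest Psme4 levels, 4 and 15 (267 and 342 CPM), had the highest macrophage sums of their group, 1837 and 2426 CPM. TKO library 20, with 208 CPM of Psme4, had 1897 CPM of macrophage markers. TKO library 16 had the next highest macrophage sum of its group, 1092 CPM, with 474 CPM of Psme4, the second highest TKO level. Without libraries 4, 15, 16 and 20, chosen after seeing the data as those with the highest macrophage sums, the knockout effect on Psme4 under STZ was -0.89 ± 0.24 with an adjusted p of 0.0533, past the threshold no longer, against 3.46% of all genes that passed. Without STZ it was then -0.93 ± 0.26, with an adjusted p of 0.207, against 0.326% of all genes that passed. The part of macrophages in the result was not tested beyond that, and in whole muscle fewer cells of a type and less RNA per cell cannot be told apart.

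STZ did not move Psme4 past the threshold in either genotype. The STZ effect was 0.44 ± 0.29 in floxed muscle (edgeR adjusted p = 0.509) and 0.33 ± 0.25 in knockout muscle (adjusted p = 0.612), from the library values above. In both genotypes the ranges with and without STZ overlapped.

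Psmf1, the inhibitor, had close to the same level in all groups. Its lowest, median and highest levels were 16.4, 24.4 and 34.1 CPM in STZ TKO and 18.8, 25.5 and 31.2 CPM in TKO muscle. STZ floxed libraries 3, 7, 14, 17 and 21 had 26.1, 24.3, 19.8, 35.8 and 23.6 CPM, and floxed libraries 1, 5, 9 and 19 had 26.7, 24.8, 22.6 and 24.9 CPM. All 4 ranges overlapped. Its log2 fold changes were -0.09 ± 0.19 (knockout under STZ), 0.03 ± 0.21 (knockout without STZ), 0.07 ± 0.21 (STZ in floxed) and -0.05 ± 0.19 (STZ in knockouts), with 95% intervals that all lay within -0.49 to 0.51.

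The other 38 members had fitted genotype effects between -0.62 and 0.51 on the log2 scale. Without STZ their median log2 fold change was 0.01, from -0.34 for Adrm1 to 0.42 for Psmg1, beside a median of 0.00 over all genes. For 34 of the 39 members the 95% interval lay within 1 log2 unit of 0 on both sides, so a doubling or halving was outside the interval. Under STZ the median over the 38 was 0.13, from -0.62 for Psmd8 (-0.20 without library 17) to 0.51 for Psma2 (0.12 without library 8), beside 0.03 over all genes, and 28 of the 39 intervals lay within 1 log2 unit. None of the 38 had an unadjusted p under 0.05 in either genotype comparison, where 11.5% of all genes without STZ and 18.7% under STZ did. That count depended on the fit: with the title code run as a block, 5 of the 38 had an unadjusted p under 0.05 under STZ (Adrm1, Psma7, Psmd2, Psmd3 and Psmd8) and 1 without STZ (Psmg1). Under STZ, 5 of the 38 also had one without library 18 (Psmd2, Psmd3, Psmd4, Psmd8 and Psmd11), and 5 others without libraries 4, 15, 16 and 20 (Psma2, Psmb1, Psmb7, Psmc6 and Psmd14). None of them passed after adjustment.

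**Figure D2:**
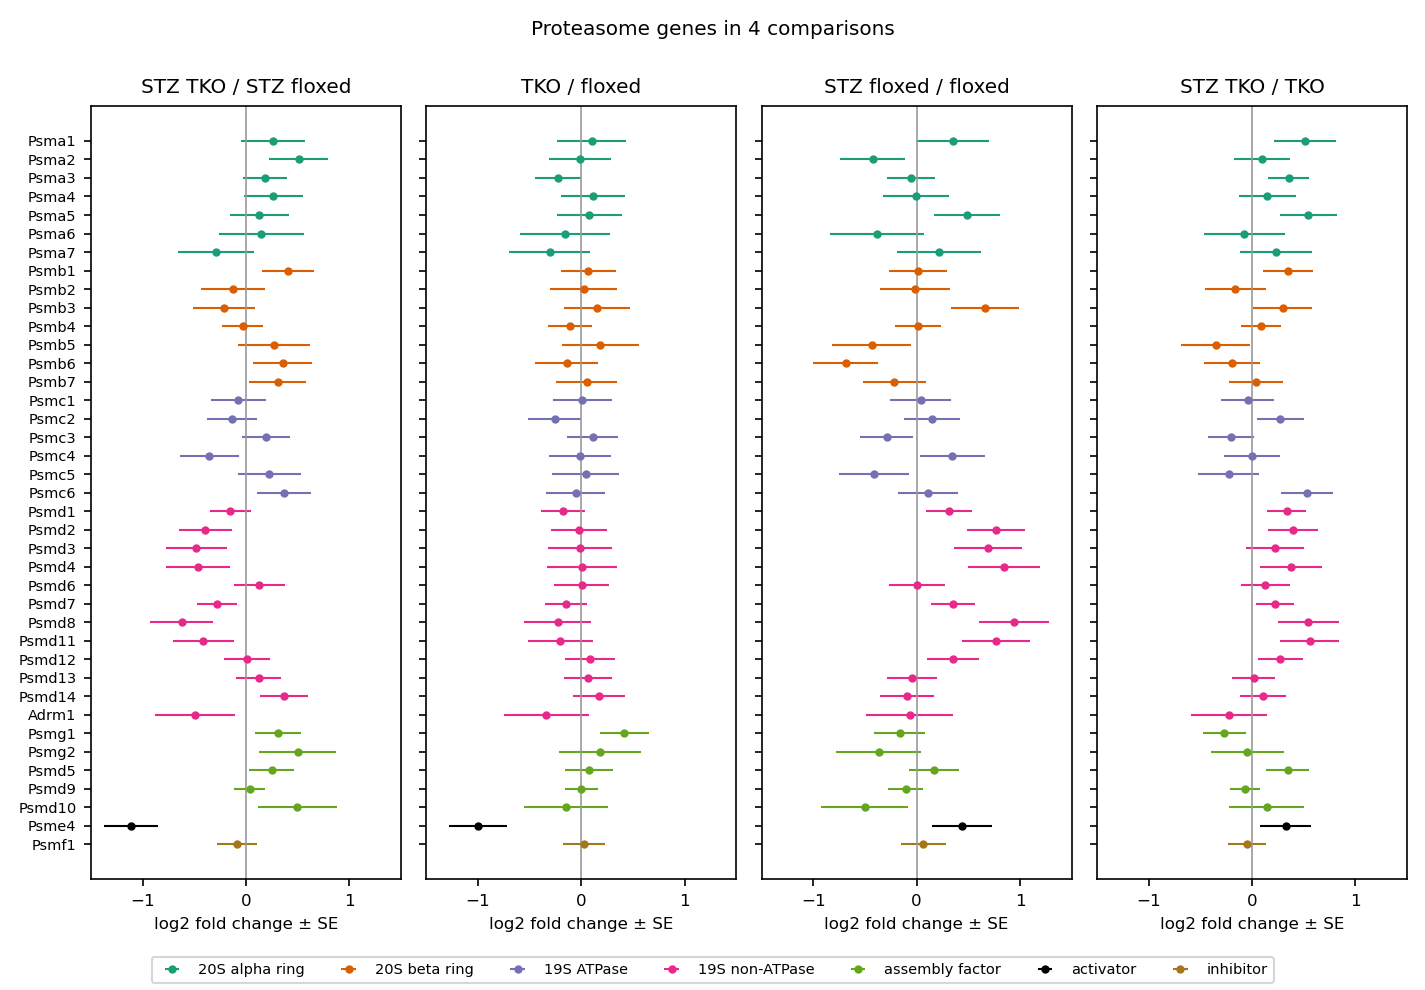
Log2 fold change with its SE for each of the 39 genes in 4 comparisons, coloured by role. Psme4 stands apart in both knockout comparisons (-1.11 and -0.998), and the 19S subunits other than ATPases reach 0.94 with STZ in floxed muscle.

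By role, the medians under STZ differed in sign. The 14 subunits of the 20S core had a median knockout effect of 0.22, with 10 of 14 positive, but -0.09 without library 8. The 12 subunits of the 19S cap other than ATPases had a median of -0.34, with 8 of 12 negative, but -0.01 without library 17. The 6 ATPases had a median of 0.06, and the 5 assembly factors 0.31. Library 8 was the highest STZ TKO library for 4 of the 6 ATPases and 4 of the 5 assembly factors. The medians of these classes without it are not given. None of the genes of these classes passed the threshold.

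The catalytic subunits were followed singly. Psmb5, the chymotrypsin-like site, had 9.25, 16.8 and 44.9 CPM (lowest, median and highest) in STZ TKO and 15.0, 26.8 and 33.9 CPM in TKO libraries. It had 14.9, 20.7, 8.71, 18.4 and 21.0 CPM in STZ floxed libraries 3, 7, 14, 17 and 21, and 21.9, 33.7, 25.8 and 9.12 CPM in floxed libraries 1, 5, 9 and 19. The groups overlapped throughout, and library 8 had the highest STZ TKO value. Psmb5's log2 fold changes were 0.27 ± 0.35 for the knockout under STZ (-0.11 ± 0.31 without library 8), 0.19 ± 0.37 for the knockout without STZ, -0.44 ± 0.39 for STZ in floxed muscle and -0.35 ± 0.33 for STZ in knockouts.

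Psmb6, the caspase-like site, had 27.6, 66 and 83.1 CPM in STZ TKO and 38.3, 75.1 and 96.6 CPM in TKO libraries (lowest, median and highest). STZ floxed libraries 3, 7, 14, 17 and 21 had 62.2, 48.2, 33.4, 31.6 and 55.2 CPM, and floxed libraries 1, 5, 9 and 19 had 66.1, 77.4, 97.5 and 56.4 CPM. The STZ floxed values overlapped the floxed values at 1 library of each, 3 and 19. Its STZ effect in floxed muscle was the lowest of the 39 members, at -0.69 ± 0.32 (unadjusted p = 0.0403, adjusted p = 0.32 in edgeR), and it was -0.28 ± 0.18 with the title code run as a block. Psmb7, the trypsin-like site, had 105, 164 and 412 CPM in STZ TKO and 125, 165 and 305 CPM in TKO libraries, with library 8 and library 6 highest. STZ floxed libraries 3, 7, 14, 17 and 21 had 175, 188, 132, 140 and 128 CPM, and floxed libraries 1, 5, 9 and 19 had 187, 183, 179 and 160 CPM. Its 4 effects ran from -0.22 ± 0.31 (STZ in floxed muscle) to 0.31 ± 0.28 (knockout under STZ, or -0.08 ± 0.21 without library 8), with overlapping groups in each.

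In the alpha ring, Psma2, Psma5 and Psma7 were each among the 3 highest or 3 lowest fold changes of a comparison. Psma2 averaged 29.7 ± 18.6 CPM in STZ TKO against 20.7 ± 3.78 CPM in STZ floxed muscle, an effect of 0.51 ± 0.28, or 0.12 ± 0.21 without library 8. Library 8 had 66.1 CPM of Psma2, beside a group median of 24.6 CPM. Psma5 averaged 29.5 ± 14.0 CPM in STZ TKO against 20.2 ± 4.49 CPM in TKO muscle (0.54 ± 0.28, or 0.37 ± 0.27 without library 8). Psma7 averaged 43.2 ± 22 CPM in TKO against 53.0 ± 16.2 CPM in floxed muscle (-0.30 ± 0.39). All of these groups overlapped, and none passed the threshold.

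Whether diabetes raised the proteasome genes in FoxO-intact muscle is the comparison of STZ floxed with floxed muscle. No member passed the threshold in edgeR, against 1.35% of all genes, and none passed in DESeq2, against 3.36%. In this comparison 6 members had an unadjusted p under 0.05, 15.4% of the 39 against 14.4% of all genes. Of these 6, 5 were 19S subunits other than ATPases with higher values in STZ floxed muscle, and the sixth was Psmb6 with lower values. The median over the 39 was 0.01, beside 0.02 over all genes, with 22 positive and 17 negative.

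The 12 19S subunits other than ATPases had a median of 0.35 in this comparison, with 9 of 12 positive. Psmd8, a subunit of the lid, had 131, 142, 101, 380 and 184 CPM in STZ floxed libraries 3, 7, 14, 17 and 21, against 85.5, 103, 123 and 80.3 CPM in floxed libraries 1, 5, 9 and 19. The highest value was library 17, and library 14 lay below floxed libraries 5 and 9. The effect was 0.94 ± 0.34 (adjusted p = 0.197), and 0.54 ± 0.29 without library 17. Psmd4, a receptor for ubiquitin chains, had 207, 240, 180, 573 and 246 CPM in the same STZ floxed libraries, against 158, 192, 156 and 138 CPM in floxed libraries. Library 14 lay below floxed library 5, and library 17 was more than double the next. The effect was 0.85 ± 0.35 (adjusted p = 0.265), and 0.46 ± 0.31 without library 17.

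Psmd11, a lid subunit that stabilises the joining of core and cap, had 196, 199, 202, 644 and 236 CPM in STZ floxed libraries 3, 7, 14, 17 and 21, against 150, 161, 159 and 222 CPM in floxed libraries 1, 5, 9 and 19. Floxed library 19 lay above 3 of the STZ floxed libraries. Leaving out library 17 brought its effect to 0.28 ± 0.25, beside 0.77 ± 0.33 with it. Psmd3, another lid subunit, had 235, 163, 225, 533 and 199 CPM in STZ floxed against 181, 182, 157 and 153 CPM in floxed muscle, with library 7 below floxed libraries 1 and 5. Its effect was 0.69 ± 0.33, or 0.31 ± 0.28 without library 17. Psmd2, a scaffold of the cap's base, had 408, 441, 427, 1018 and 403 CPM in STZ floxed against 315, 372, 309 and 275 CPM in floxed muscle. It was the 1 member whose STZ floxed libraries all lay above the floxed libraries, which 3.62% of all genes did, and it is singled out after its values were seen. Its effect was 0.76 ± 0.28 with an adjusted p of 0.206, or 0.42 ± 0.23 without library 17.

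Without library 17, no member had an unadjusted p under 0.05 in this comparison, and the median over the 12 genes was 0.18. Library 17 exceeded the median of the other 4 STZ floxed libraries 3.21 times for Psmd11, 2.89 times for Psmc4, 2.79 times for Psma1 and 2.78 times for Psmd8. It was below that median for Psmg2 (0.288 times), Psma6 (0.590 times) and Psmb6 (0.611 times), so its genes did not stand in 1 direction.

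**Figure D3:**
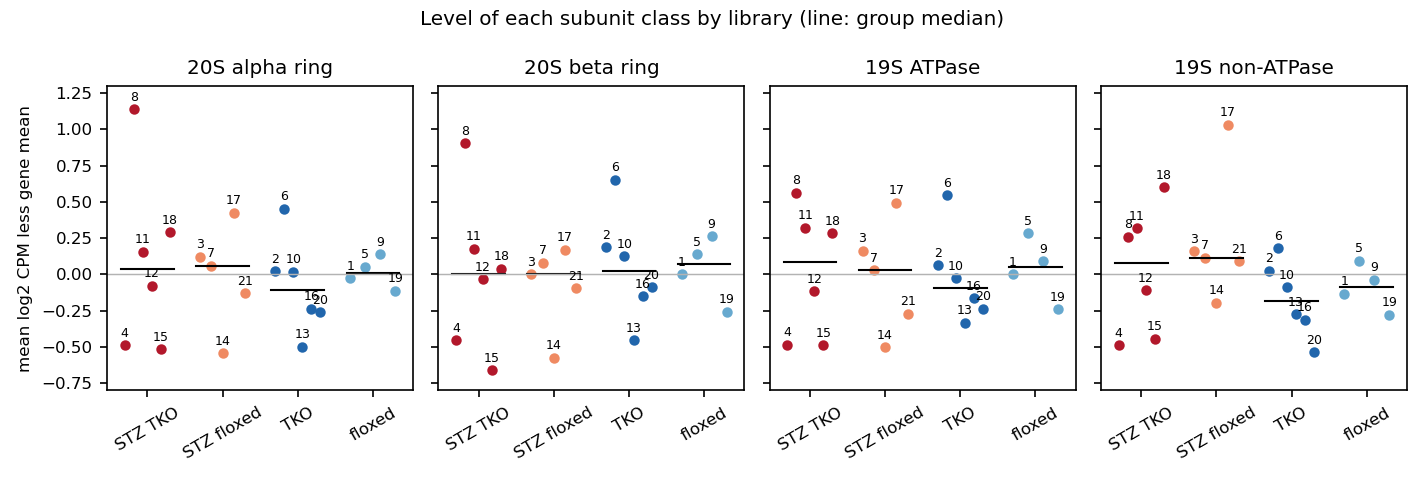
Mean log2 CPM of each subunit class less each gene's mean over all libraries, per library with its title number; the line is the group median. Library 17 stands at 1.03 for the 19S subunits other than ATPases, and library 8 at 1.14 for the alpha ring and 0.91 for the beta ring.

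In knockout muscle, STZ TKO was compared with TKO. No member passed in edgeR, against 0.142% of all genes, and none passed in DESeq2, against 0.878%. No member had groups that did not overlap here, against 0.624% of all genes. One member, the ATPase Psmc6, had an unadjusted p under 0.05 (2.56% of the 39, against 11.3% of all genes), with 152 ± 69.8 CPM in STZ TKO against 105 ± 21.2 CPM in TKO muscle. Its effect was 0.54, but 0.29 ± 0.23 without library 8 (edgeR unadjusted p = 0.221). Without library 18 it was 0.48 ± 0.27 (unadjusted p = 0.0852). The median over the 39 was 0.14, from -0.35 for Psmb5 to 0.56 for Psmd11, beside 0.01 over all genes. It was 0.01 without library 8.

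Psmd11 had 122, 194 and 382 CPM in STZ TKO and 120, 153 and 171 CPM in TKO libraries (lowest, median and highest), an effect of 0.56 ± 0.28, or 0.33 ± 0.27 without library 18. Psmd8 had 66.3, 114 and 201 CPM in STZ TKO and 62.9, 88.0 and 100 CPM in TKO libraries, an effect of 0.55 ± 0.29, or 0.35 ± 0.29 without library 18. Library 18 was the highest for both, and the groups overlapped. Psmc5, an ATPase of the base, averaged 118 ± 44.9 CPM in STZ TKO against 138 ± 73.4 CPM in TKO muscle (-0.23 ± 0.29). For 33 of the 39 members the interval of the STZ effect in knockouts lay within 1 log2 unit of 0.

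No member passed the test of the difference between both STZ effects, against 0.0079% of all genes. None passed in DESeq2 (0.0316% of all genes did), and none had an unadjusted p under 0.05, against 3.89% of all genes. The fitted differences ran from -0.47 ± 0.46 for Psmd4 to 0.65 ± 0.56 for Psmd10. The interval lay within 1 log2 unit for 16 of 39 members, so for the other 23 the libraries leave room for a larger difference.

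Assembly factors and the ubiquitin receptor Adrm1 were low in level. Psmg1, a chaperone of the alpha ring, averaged 8.35 ± 2.51 CPM in STZ TKO against 6.65 ± 1.47 CPM in STZ floxed muscle, and 10.0 ± 1.59 CPM in TKO against 7.47 ± 1.5 CPM in floxed muscle. Its genotype effects were 0.31 ± 0.22 and 0.42 ± 0.24. Psmg2, its partner, averaged 12.5 ± 6.62 CPM in STZ TKO against 8.84 ± 4.69 CPM in STZ floxed muscle (0.50 ± 0.37), and 12.9 ± 5.07 CPM in TKO against 11.2 ± 3.19 CPM in floxed muscle (0.18 ± 0.40). Psmd10, a chaperone of the cap's base, averaged 4.50 ± 1.87 CPM in STZ TKO against 3.15 ± 1.09 CPM in STZ floxed muscle (0.50 ± 0.38). For 4 of the 5 assembly factors the highest STZ TKO value was in library 8. STZ floxed library 17 had 0.288 times the median of the others of its group for Psmg2. Effects without these libraries are not given for the assembly factors. Adrm1 averaged 26.7 ± 10.3 CPM in STZ TKO against 37.5 ± 15.4 CPM in STZ floxed muscle (-0.49 ± 0.38), and 31.5 ± 17.7 CPM in TKO against 39.3 ± 16.3 CPM in floxed muscle (-0.34 ± 0.41). None of these passed the threshold. The SD of log2 CPM within groups was highest for Psma6 (0.73) and Adrm1 (0.72) and lowest for the assembly factor Psmd9 (0.20).

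Levels between genes were compared per kilobase of annotated exon, in CPM per kb in floxed muscle. The length counts every annotated exon of a gene, whether or not muscle uses it. In the beta ring it ran from 899 bases for Psmb5 to 4595 for Psmb1. The order below may therefore partly reflect the annotation, which was not tested. Psmc5 was the highest at 96.2, followed by Psmd7, a scaffold of the lid's deubiquitinase, at 89.2 and Psme4 at 86.0. That order rests on library 5: without it Psme4 had 91.5, Psmd7 85.1 and Psmc5 83.0. The catalytic subunits had 51.8 (Psmb7), 39.7 (Psmb6) and 25.2 (Psmb5). The lowest were Psmd9 at 4.16, Psmf1 at 3.84 and Psmd10 at 3.05, all outside the core and cap. In the floxed means the 5 assembly factors and Psmf1 lay below each core and cap subunit. Nearest to them were Adrm1 at 8.82 and Psma2 at 7.57, close above Psmg2 at 6.43. That order differed in single libraries, such as floxed library 9, where Psmg2 had 8.82, Psma2 8.58 and Adrm1 7.85. In STZ TKO muscle Psme4 was at 54.0 CPM per kb against 117 in STZ floxed muscle, and in TKO muscle at 43.1 against 86.0 in floxed muscle.

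**Figure D4:**
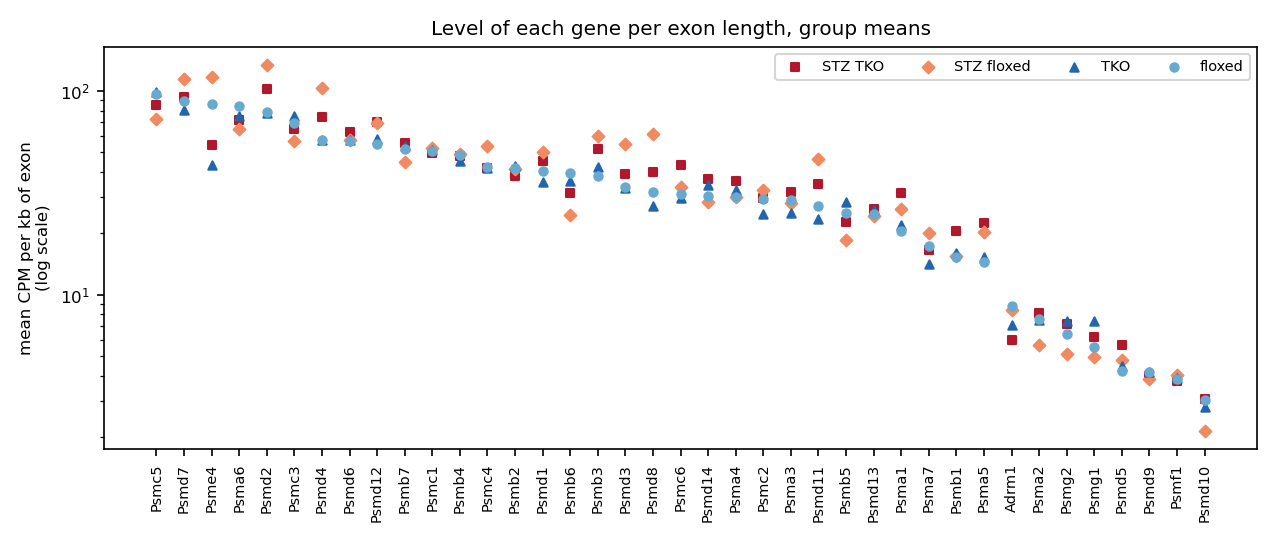
Mean CPM per kb of exon for each of the 39 genes in STZ TKO, STZ floxed, TKO and floxed muscle, on a log scale, ordered by the floxed level. Psmc5 is the highest in floxed muscle (96.2, but 83.0 and below Psme4 without library 5) and Psmd10 the lowest (3.05), and the knockout symbols of Psme4 lie below its floxed symbols.

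Further genes of the proteasome system, none of them among the members above, were taken from a list of 47, of which 44 were tested. The list includes the immunoproteasome genes described below, some of which encode subunits. In STZ TKO against STZ floxed muscle, 3 passed the threshold, all lower (Ddi2, Hsf1 and Zfand5), and none rose, with 5 at an unadjusted p under 0.05. These are 6.82% and 11.4% of the 44, against 4.89% and 18.7% of all genes. In TKO against floxed muscle, 1 passed as lower (Zfand5), with 3 at an unadjusted p under 0.05, or 2.27% and 6.82% of the 44 against 0.514% and 11.5% of all genes. In the STZ comparisons and the difference of the STZ effects none passed in edgeR, with 6 (floxed), 1 (knockouts) and 1 (difference) at an unadjusted p under 0.05. These shares, 13.6%, 2.27% and 2.27%, stand against 14.4%, 11.3% and 3.89% of all genes. The medians over the 44 were -0.15 (knockout under STZ), -0.06 (knockout without STZ), 0.26 (STZ in floxed muscle) and 0.10 (STZ in knockouts).

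Zfand5 encodes a zinc finger protein that binds ubiquitin and the proteasome and stimulates degradation, and it is known as a gene induced in muscle atrophy. Its lowest, median and highest levels were 134, 221 and 289 CPM in STZ TKO libraries, against 370, 447, 331, 442 and 445 CPM in STZ floxed libraries 3, 7, 14, 17 and 21. In TKO libraries they were 95.5, 170 and 214 CPM, against 244, 341, 361 and 347 CPM in floxed libraries 1, 5, 9 and 19. Each knockout group lay wholly below its floxed group. Zfand5 fell in both comparisons, with log2 fold changes of -0.93 ± 0.22 under STZ (adjusted p = 0.0145) and -1.04 ± 0.24 without STZ (adjusted p = 0.0394). Under STZ it passed with each library left out in turn. Without STZ it passed in 10 of 21 such fits, with adjusted p-values of 0.0263 to 0.161, the highest without library 9. With the compared groups only, Zfand5 did not pass without STZ (edgeR adjusted p = 0.0623). It passed there with RLE scaling (0.0462), no filter (0.0307) and the title code run as a block (0.0345), and in DESeq2 (0.00349).

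Ddi2 encodes the protease that cleaves and so activates Nfe2l1, the transcription factor known for raising proteasome genes when the proteasome is impaired. Its lowest, median and highest levels were 62.8, 129 and 166 CPM in STZ TKO libraries, against 217, 240, 224, 257 and 276 CPM in STZ floxed libraries 3, 7, 14, 17 and 21. The groups did not overlap, and Ddi2 fell, at -0.97 ± 0.19 (adjusted p = 0.00381). In TKO libraries the levels were 71.1, 109 and 123 CPM, against 176, 227, 153 and 191 CPM in floxed libraries 1, 5, 9 and 19. That effect was -0.83 ± 0.21 with an adjusted p of 0.0659 in edgeR, so it did not pass. It passed in DESeq2 (adjusted p = 0.00786) and, in edgeR, with the title code run as a block (0.0391) and the compared groups only (0.0484). It also passed without libraries 17 and 18, a set not planned beforehand (0.0395). It did not pass with RLE scaling (0.0686), with no filter (0.096) or without libraries 4, 15, 16 and 20 (0.232). With 1 library left out in turn, it passed in 1 of 21 fits, with adjusted p-values of 0.0126 to 0.204. A Ddi2 exon overlaps one of Rsc1a1 on the same strand, so reads of these genes cannot all be told apart.

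Hsf1 encodes the main activator of the heat shock response. Its lowest, median and highest levels were 19.1, 24.6 and 30.3 CPM in STZ TKO libraries, against 40.1, 39.8, 36.7, 47.8 and 39 CPM in STZ floxed libraries 3, 7, 14, 17 and 21. No STZ TKO library reached the STZ floxed range, and Hsf1 fell, at -0.73 ± 0.18 (adjusted p = 0.0168). Without STZ it had 22.8, 30.6 and 37.5 CPM in TKO libraries, against 38.9, 39, 31.0 and 20.9 CPM in floxed libraries 1, 5, 9 and 19, which overlapped (-0.11 ± 0.19). The difference between both effects was -0.62 ± 0.26, with an unadjusted p of 0.0259 and an adjusted p of 1.00. Without libraries 4, 15, 16 and 20, the effects under STZ were -0.95 ± 0.23 for Ddi2 (adjusted p = 0.0239), -0.73 ± 0.20 for Zfand5 (0.0533) and -0.67 ± 0.20 for Hsf1 (0.0698).

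Nfe2l1 itself had the same level in all 4 groups within their spread: 643 ± 73.9 CPM in STZ TKO, 663 ± 91.3 CPM in STZ floxed, 643 ± 138 CPM in TKO and 676 ± 113 CPM in floxed muscle. Its genotype effects were -0.04 ± 0.17 under STZ (95% interval -0.40 to 0.31) and -0.07 ± 0.18 without STZ (-0.45 to 0.31). Pomp, the maturation factor of the 20S core, averaged 30.1 ± 18.5 CPM in STZ TKO against 19.1 ± 4.33 CPM in STZ floxed muscle, and 33.9 ± 12.0 CPM in TKO against 31.5 ± 4.13 CPM in floxed muscle. Its effect was 0.64 ± 0.31 under STZ (0.27 ± 0.26 without library 8) and -0.72 ± 0.35 for STZ in floxed muscle, with adjusted p-values of 0.282 and 0.345.

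**Figure D5:**
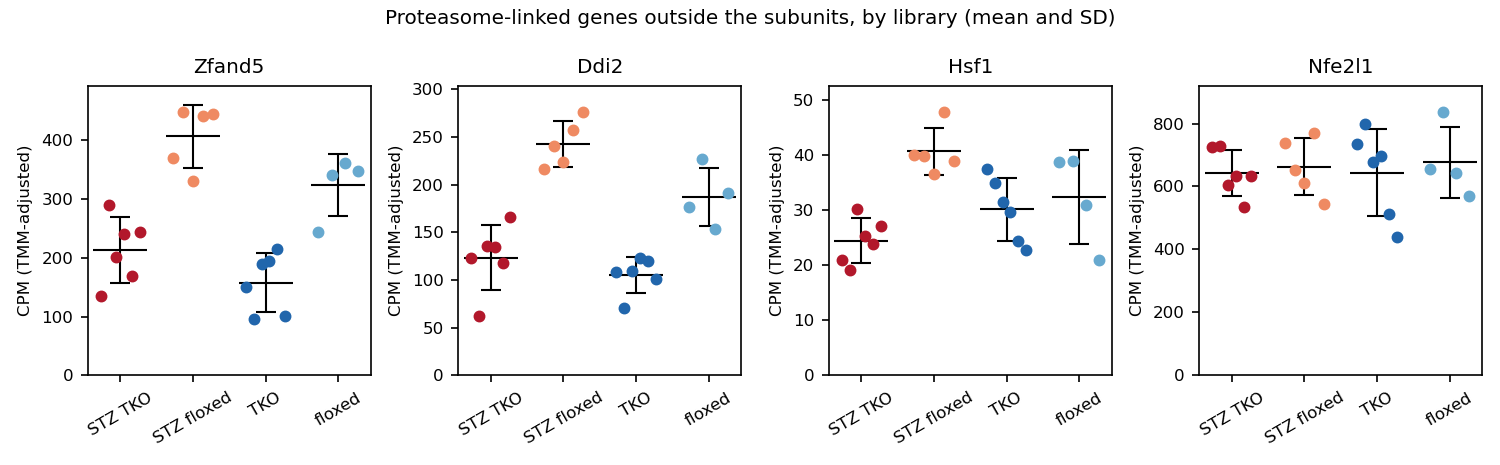
Level in CPM of Zfand5, Ddi2, Hsf1 and Nfe2l1 in each library of STZ TKO, STZ floxed, TKO and floxed muscle, with the group mean and SD. The knockout points of Zfand5 and Ddi2 lie below the floxed points with and without STZ, those of Hsf1 under STZ, and the groups of Nfe2l1 overlap.

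The immunoproteasome genes, which replace catalytic subunits or cap the core under interferon, had 0 of 5 past the threshold in each comparison in edgeR. Psmb8 averaged 4.11 ± 2.36 CPM in STZ TKO against 4.78 ± 2.98 CPM in STZ floxed muscle, and 4.55 ± 3.03 CPM in TKO against 2.41 ± 0.967 CPM in floxed muscle. Psme2 averaged 15.2 ± 4.11 CPM in TKO against 9.55 ± 1.36 CPM in floxed muscle, an effect of 0.66 ± 0.24 (unadjusted p = 0.0105, adjusted p = 0.219) and the 1 of the 5 with an unadjusted p under 0.05 in any comparison. In the same libraries, 6 of 12 interferon response genes rose with STZ in floxed muscle, where 1.35% of all genes passed in either direction; Psmb8 and Psmb9 stand in that list and were not among them.

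Promoter windows of RefSeq, 300 bases long with 250 before the start site and 50 after, were found for 32 of the 39 members (34 windows). The FoxO core GTAAACA was searched on both strands and stood in 0 of the 34 windows, against 3.65% of 32851 windows of all genes. The antioxidant response core TGACNNNGC, which Nfe2l1 and its relatives are known to bind with small Maf proteins, stood on either strand in 7 of 34 windows (20.6%), against 12.4% of all windows. Among them were Psmb5, Psmb6, Psmc6, Psmd12, Psmd9 and Psme4. These matches are descriptions of letters in a window and say nothing on binding.

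The matches in the catalytic subunits Psmb5 and Psmb6 and in the ATPase Psmc6 are shown with up to 15 bases on each side, the core in capitals, on the strand of the gene. All are GRCm38.p6. Psmb5 comes from the window chr14:54617946-54618245 (minus strand), Psmb6 from chr11:70525107-70525406 (plus) and Psmc6 from chr14:45329574-45329873 (plus).
Psmb5: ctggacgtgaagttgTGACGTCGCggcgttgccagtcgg
Psmb6: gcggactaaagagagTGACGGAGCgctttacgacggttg
Psmc6: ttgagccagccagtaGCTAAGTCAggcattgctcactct

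The core reads forward in Psmb5 and Psmb6, and in reverse complement in Psmc6 and Psme4. Its first base lies at -47 and -9 from the start site in Psmb5 and Psmb6, and at -227 and -7 in Psmc6 and Psme4. Whether the core bears on the level of any of these genes was not tested.

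Zfand5 and Ddi2, the other genes that fell with a window in the table, are shown for comparison. Zfand5 (chr19:21272028-21272327, plus strand) holds the antioxidant response core in both orientations, in capitals, and Ddi2 (chr4:141723370-141723669, minus strand) holds neither motif.
Zfand5: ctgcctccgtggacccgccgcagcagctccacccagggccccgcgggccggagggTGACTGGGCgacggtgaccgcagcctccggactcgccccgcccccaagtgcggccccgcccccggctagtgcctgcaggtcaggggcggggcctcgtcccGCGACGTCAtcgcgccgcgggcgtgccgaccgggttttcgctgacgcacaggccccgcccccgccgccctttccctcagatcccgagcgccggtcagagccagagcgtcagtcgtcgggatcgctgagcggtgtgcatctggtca
Ddi2: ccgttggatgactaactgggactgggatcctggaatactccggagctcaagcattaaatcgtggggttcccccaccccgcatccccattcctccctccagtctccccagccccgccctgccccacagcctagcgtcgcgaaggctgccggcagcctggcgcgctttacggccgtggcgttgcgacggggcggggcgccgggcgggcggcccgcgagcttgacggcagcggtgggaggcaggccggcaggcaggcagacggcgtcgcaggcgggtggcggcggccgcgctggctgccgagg

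Of the 39 members, 9 have an exon that overlaps one of another gene, among them Psmb5 (with the microRNA gene Mir686 on the same strand), Psmb7 (with Nek6 on the opposite strand) and Psmd3 (with Gm12356 on the opposite strand). The 4 pseudogenes named after Psmb5, Psmb6 and Psmb7 held 2 counts over all libraries.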

How the data were processed

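The deposited table holds raw read counts per Ensembl mouse gene, made by the authors with the aligner STAR and the counter featureCounts on GRCm38.p4, per the submitters' processing notes. The sources used here do not give tool versions, annotation or strand setting. Library preparation kept the strand, per the labels' protocols. Symbols and coordinates came from the GENCODE annotation of GRCm38, where 45143 of 46071 gene IDs matched a symbol; the rest held 0.0533% of the counts.

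Genes were filtered by filterByExpr and scaled by TMM (factors 0.862 to 1.35), and 1 robust quasi-likelihood model of 4 group means was fitted to 21 libraries with edgeR 4.0.16 in R 4.3.3. Tests were two-sided, with Benjamini-Hochberg adjustment over 12658 genes within each contrast and a threshold of 0.05. Alternatives were DESeq2 1.42.0, RLE scaling, no filter, the title code run as a block, the compared groups only, each library left out, and 2 sets of libraries left out. Class levels are means of log2 CPM (prior count 2). A check of the fit used counts simulated from the genes' own means and spread. It held no outlying libraries or runs, so it does not cover those.

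The members and lists were chosen with earlier results of these data known. Named members were Psme4, Psmf1, Psmb5, Psmb6, Psmb7, those past the threshold, and the 3 highest and 3 lowest fold changes of each contrast. By the same rule, other genes were named where past the threshold, besides Nfe2l1 and Pomp. Psmd2, Psmc6, Psmb8 and Psme2, among others, were named outside this rule with their values known. The labels do not say that each library is a separate animal, so p-values measure the spread between libraries, which may be technical. One promoter match is not reported here.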

Additional observations from a re-analysis of the deposited data

Results flagged for a closer look

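In groups of 4 to 6 libraries, 12 of 116 sets of values had a highest or lowest library that stood far from the nearest other one. The limit used flags about 1 in 20 groups of normally distributed values. These sets share the same libraries and need not be normal, so the 12 cannot be set against that rate. Library 8 was the highest STZ TKO library in 5 of them, with 44.89 CPM for Psmb5 (the next library had 22.1 CPM), 412.2 for Psmb7 (next 171), 108.6 for Psma7 (next 53.8), 66.12 for Psma2 (next 28.6) and 65.51 for Pomp (next 29.4). Library 17 was the highest STZ floxed library in another 5: 573 CPM for Psmd4 (next 246), 643.9 for Psmd11 (next 236), 533 for Psmd3 (next 235), a mean level of 1.033 for the 19S subunits other than ATPases (next 0.16), and 0.9932% of counts on the 39 genes (next 0.501%). In floxed muscle, library 19 had the highest Psmd11 value, 222.4 CPM (next 161), and library 1 the lowest Zfand5 value, 244.4 CPM (next 341).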

How the results depend on the processing

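The number of members past the threshold kept its value under each alternative for STZ in floxed muscle, STZ in knockouts and the difference of the STZ effects (0 in each). For the knockout without STZ it was 0, but 1 (Psme4) with DESeq2 and 1 with the title code run as a block. For the knockout under STZ it was 1, but 0 without libraries 4, 15, 16 and 20. With 1 library left out in turn it stayed 0 without STZ and 1 under STZ. Genes past the threshold over the whole table numbered 171, 65, 619, 18 and 1 (STZ in floxed, knockout without STZ, knockout under STZ, STZ in knockouts, difference), against 425, 351, 1011, 111 and 4 with DESeq2 and 245, 92, 1068, 98 and 0 with the block. With 1 library left out they ranged over 31 to 333, 32 to 105, 380 to 780, 7 to 61 and 0 to 2. Members with an unadjusted p under 0.05 numbered 1 for the knockout under STZ and 1 for STZ in knockouts, but up to 6 for the knockout under STZ (with the block, without library 18, and without libraries 4, 15, 16 and 20; 4 without library 17). For STZ in knockouts they were 8 without library 4, 7 without libraries 4, 15, 16 and 20, 5 without library 15 and 4 without library 17. No called value changed its sign. Why the counts moved was not tested. No paired analysis was possible because the groups share no replicate number: the title numbers 1 to 21 are unique to a library. The block used above is the run of consecutive title codes, which the labels do not call a pairing. At these depths members with few counts, such as Psmd10, have wide intervals, and groups of 4 to 6 libraries limit the rest. Reads shared with overlapping genes could not be separated.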
